A study of Schizosaccharomyces pombe with 8 samples.

Results

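The comparison described here set fission yeast cells that lack pap1 against wild type cells while both were exposed to nitric oxide. It used 4 of the 8 arrays of the study, chosen by their titles: 2 arrays of the treated deletion strain and 2 of the treated wild type. Transcripts of 2896 genes of Schizosaccharomyces pombe were compared, while the reference table lists 5124 protein-coding genes. The wild type strain was 972h-, and the deletion strain was AV25, h- with pap1 replaced by the kanMX6 marker, so both strains had the same mating type. Cells had grown in yeast extract medium, were moved to phosphate-buffered saline, and received 3 mM of the nitric oxide donor detaNONOate, which gives off the gas while it breaks down, for 15 min at 30 °C. The other 4 arrays, 2 for each strain, came from cells given decomposed detaNONOate at the same concentration, and they are used here only to show where the treated comparison differs. Control and treated sets were taken from a shared flask. By the labels, replicate arrays are biological replicates, and 2 arrays per group limit the precision of every value. The deletion strain is a single named strain, so any other difference between it and the wild type strain is part of the strain comparison.

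Pap1 is a bZIP transcription factor related to mammalian AP-1. In unstressed cells the exportin Crm1 carries it out of the nucleus. Oxidation of its cysteines hides the export signal, Pap1 then accumulates in the nucleus, and it activates genes for antioxidant enzymes and for transporters that give drug resistance. Nitric oxide and its products react with thiols and metal centres, so thiol defence, metal handling and respiration were looked at as gene groups beside the genes known to need Pap1.

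Signal of the deleted gene was checked in each array. Log2 levels of pap1 were 10.11 and 10.09 in treated wild type and 2.14 and 2.20 in the treated deletion. Control arrays read 9.90 and 9.93 in wild type and 2.33 and 2.35 in the deletion. The deletion arrays all lay under the background level of 3.41, the 95th percentile of the probe sets for Saccharomyces cerevisiae that share the array. The level of pap1 in treated cells was therefore at least 103-fold lower in the deletion (limma, adjusted p = 6.66e-11), and the signal went with the strain label in all 8 arrays. The median over the S. pombe genes lay between 7.85 and 7.96 in the 8 arrays, and replicate arrays correlated across genes at 0.998 to 0.999.

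The treated strains also differed in how signal was spread along transcripts. Labelling starts at the 3' end, and 7 S. pombe control transcripts carry separate probe sets near each end. The median of the 3' minus the 5' signal over these transcripts, called the 3' to 5' index, was 3.36 and 3.34 in the treated wild type arrays and 2.56 and 2.73 in the treated deletion arrays. The index was thus 0.71 lower in the treated deletion on the log2 scale, while in control arrays it was 0.31 higher in the deletion. At the 5' ends the strain difference in level under active donor, deletion minus wild type, had a median of 1.24 (from -0.21 to 2.40), and at the 3' ends a median of 0.09 (from -0.16 to 0.91). Actin ACT1 read 1.70 higher in the deletion at its 5' end and 0.08 at its 3' end. For the glycolytic control transcript GPD3 the same differences were 2.40 and 0.54. TFIID went the other way, with 0.78 at the 3' end and -0.21 at the 5' end. These are S. pombe transcripts, so their own levels can change, and for the other genes the place of the probe set along the transcript was not used here. Among the treated arrays the index and the strain cannot be told apart, and every strain difference below stands beside this shift.

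**Figure D1:**
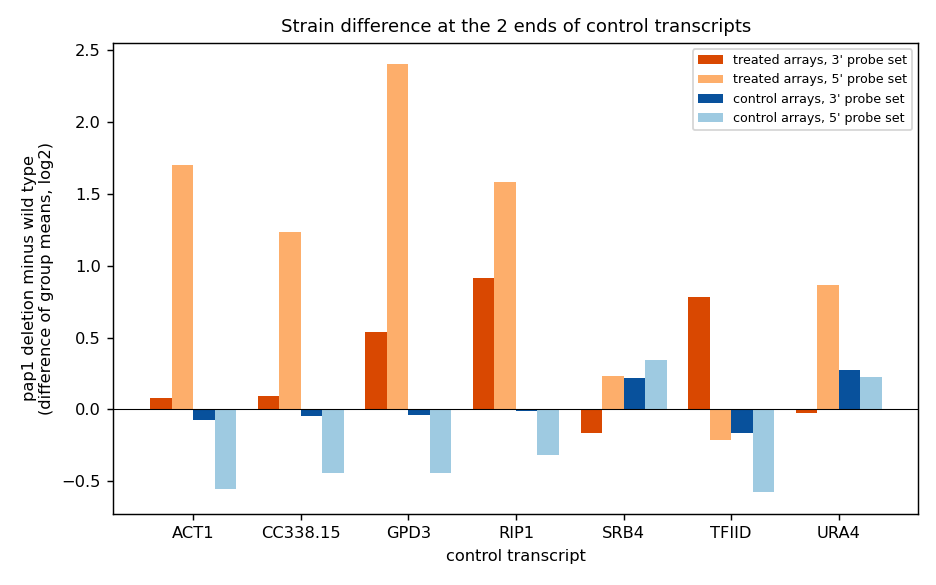
The difference in log2 signal between pap1 deletion and wild type (vertical axis, difference of the means of 2 arrays per group) for the 7 control transcripts (horizontal axis), at the 3' and the 5' probe set, in treated and in control arrays. In treated arrays ACT1 differs by 1.70 at the 5' end and by 0.08 at the 3' end, and in control arrays the 5' ends of most transcripts lie below 0, with a median of -0.44.

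Under nitric oxide the deletion differed from wild type in the levels of most genes measured, mostly by little. The steepest drops in the deletion were in pap1 itself and in 3 enzymes of redox and cofactor metabolism, gst2, plr1 and obr1. The largest gains were in qcr1 of the respiratory chain, in the RNA helicase gene sum3 and in the S-adenosylmethionine synthetase gene sam1. In limma's fit with Benjamini-Hochberg adjustment over all genes and a threshold of 0.05, 1139 genes (39.3%) were higher and 766 (26.5%) were lower in the deletion, and 991 did not pass. Of these, 117 were higher and 15 lower by at least 2-fold. The median difference over all genes was 0.06 on the log2 scale, and the median size among the called genes was 0.41. The split moved with the scaling: with each array centred on its median S. pombe gene it was 1001 higher and 940 lower, and with quantile normalization of the S. pombe genes 913 were higher and 1020 lower. Of the 1139 genes called higher, 906 were also called higher after quantile normalization and 15 had the other sign there. In RNA of a whole culture, fewer cells with a transcript and less of it per cell cannot be told apart.

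The called genes were chosen by the difference between the treated groups, so the order of those groups in their median levels is fixed by the choice. For the genes called higher the median level was 7.76 in treated wild type arrays, against 8.30 in the treated deletion, 8.50 in wild type control and 8.44 in deletion control arrays. The 766 genes called lower had a median level of 8.04 in treated wild type and 7.59 in the treated deletion, against 7.38 and 7.47 in the control arrays of wild type and deletion. The share of genes called also moved with gene length. Of the 724 shortest genes 26.2% were higher and 35.2% lower, of the next 724 genes 50.4% were higher and 18.1% lower, and of the 724 longest 33.8% and 31.6%. The 3 chromosomes held similar shares, from 38.1% to 40.5% higher.

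Genes known to need Pap1 for their induction by oxidative stress, 13 of them measured, did not move together. In the treated deletion 5 of them were lower (38.5%, beside 26.5% of all genes), 5 were higher (38.5%, beside 39.3%) and 3 did not pass. Their median was 0.07 on the log2 scale beside 0.06 over all genes, and after quantile normalization the list's median was -0.07. The glutathione S-transferase gene gst2, whose enzyme joins glutathione to electrophiles, read 7.76 and 7.88 in treated wild type and 4.40 and 4.87 in the treated deletion. Both deletion arrays lay far below both wild type arrays, a 9.10-fold lower level (log2 -3.19 ± 0.15, SE, n = 2 per group, adjusted p = 5.84e-06). The flavodoxin-like oxidoreductase gene obr1 read 11.02 and 11.03 in treated wild type and 9.40 and 9.47 in the treated deletion. Its level was 3.00-fold lower, and the groups stood apart by many times their own spread (-1.59 ± 0.04, adjusted p = 1.52e-06). Sulfiredoxin srx1, which restores overoxidized peroxiredoxin, read 11.56 and 11.50 in wild type and 10.96 and 10.99 in the deletion. It was 1.47-fold lower (-0.55 ± 0.04, adjusted p = 4.31e-05). The ABC transporter gene bfr1, named for brefeldin A resistance, read 10.09 and 10.05 in wild type and 9.64 and 9.62 in the deletion and was 1.36-fold lower (-0.44 ± 0.04). The peroxiredoxin gene tpx1, whose product passes the peroxide signal to Pap1, read 12.21 and 12.20 against 12.12 and 12.08. That difference of -0.11 ± 0.04 passed narrowly (adjusted p = 0.0454) and did not pass when any of the 8 arrays was left out (adjusted p from 0.0556 to 0.152).

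Of the same list, catalase, thioredoxin reductase and a drug pump did not pass. Catalase ctt1, which breaks down hydrogen peroxide, read 11.91 and 11.87 in treated wild type and 11.79 and 11.88 in the treated deletion. The groups overlapped, and the difference was -0.06 (95% interval -0.19 to 0.08, adjusted p = 0.402). Thioredoxin reductase trr1 read 10.74 and 10.77 against 10.79 and 10.86, a difference of 0.07 (-0.03 to 0.18) whose sign turned after quantile normalization (-0.07). The multidrug ABC transporter gene pmd1 differed by 0.07 (-0.05 to 0.19). Higher in the deletion were glutathione reductase pgr1 (0.30 ± 0.04, adjusted p = 0.0007) and the transporter gene caf5, known from caffeine resistance (0.60 ± 0.14, adjusted p = 0.00668). The remaining members, gst3 (0.19), the thioredoxin gene trx2 (0.29) and sro1 (1.11), were also higher and are named after their values were seen, to complete the list. In control arrays the same list had 6 members lower and 7 that did not pass (median -0.17), so 46.2% were lower there beside 9.15% of all genes. From control to treated arrays the strain difference itself moved upward for 8 of the 13 members (61.5%, beside 33.9% of all genes). It moved downward for 2 (15.4%, beside 25.1%). The upward members included gst2 (0.96 ± 0.21, adjusted p = 0.0065), pmd1 (0.51 ± 0.07), trr1 (0.21 ± 0.06), pgr1 (0.33 ± 0.06) and caf5 (0.55 ± 0.19). The downward ones were srx1 (-0.36 ± 0.06) and bfr1 (-0.22 ± 0.05). This change did not pass for obr1 (0.11 ± 0.06, adjusted p = 0.156), ctt1 (0.11, adjusted p = 0.256) or tpx1 (-0.08, adjusted p = 0.264).

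The srx1 and bfr1 gaps widened under active donor, while those of gst2 and plr1 narrowed. Levels of srx1 were 12.05 and 12.12 in wild type control and 11.89 in both deletion control arrays, a difference of -0.19 that grew to -0.55 in treated cells. Levels of gst2 were 8.80 and 8.83 in wild type control and 4.79 and 4.55 in deletion control, a difference of -4.15 against -3.19 in treated cells. The gst2 levels of the deletion thus overlapped between control and treated arrays, and the levels of wild type did not. The pyridoxal reductase gene plr1, of vitamin B6 metabolism, was not in the list. It read 10.44 and 10.43 in treated wild type and 8.54 and 8.64 in the treated deletion, a 3.60-fold lower level (-1.85 ± 0.05, adjusted p = 1.52e-06). Its control difference was -2.50, and the change of 0.65 ± 0.07 between the comparisons passed (adjusted p = 0.00023).

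**Figure D2:**
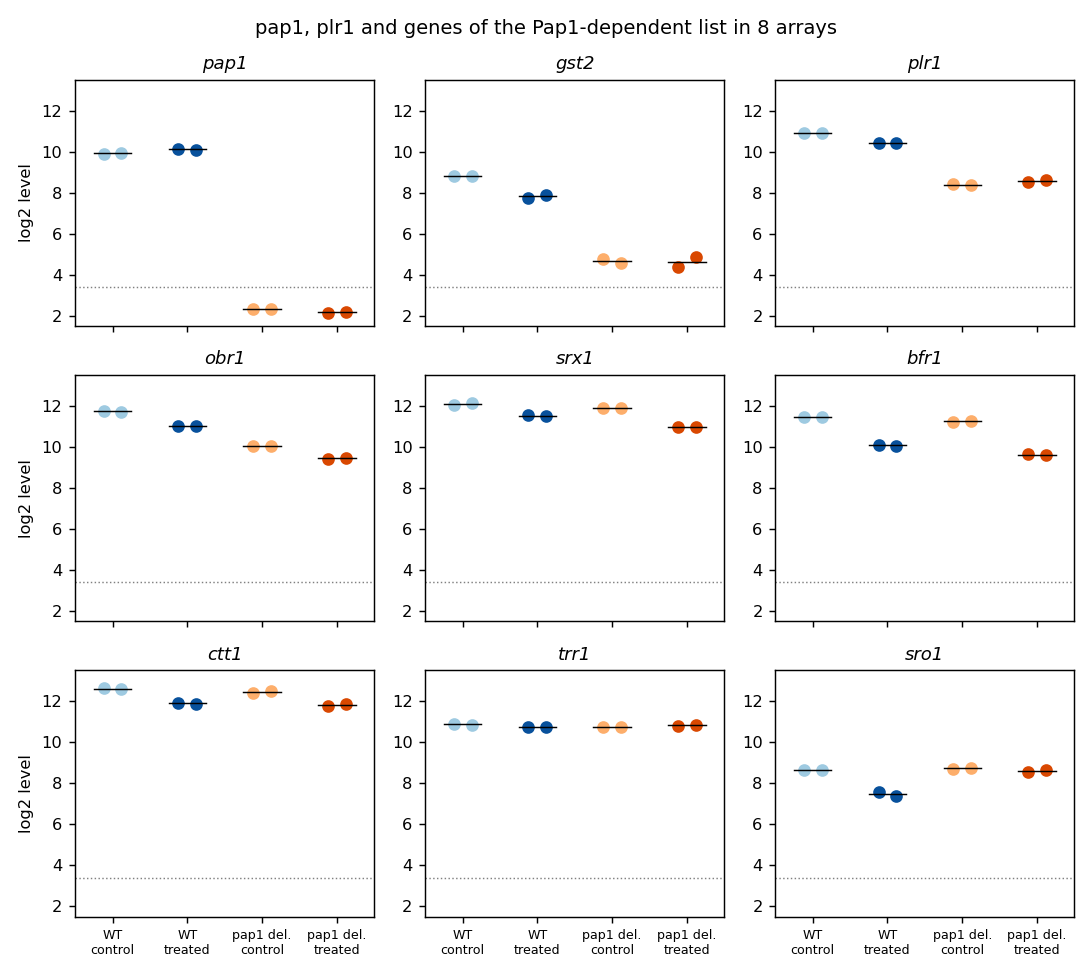
Log2 levels (vertical axis) of pap1, plr1 and 7 genes of the Pap1-dependent list in the 4 groups (horizontal axis); points are arrays, bars the mean of 2, and the dotted line the background level of 3.41. The deletion arrays of gst2, plr1 and obr1 lie below all wild type arrays with either donor, ctt1 and trr1 differ little between strains in treated arrays, and sro1 is lower in treated wild type than in the other 3 groups.

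Genes that control Pap1 or move proteins through the nuclear pore formed another list of 13. Of these 6 were higher (46.2%, beside 39.3% of all genes), 3 lower (23.1%, beside 26.5%) and 4 did not pass. The 3 lower genes include pap1 itself, whose drop is fixed by the deletion. The median of the list was 0.08, or -0.06 after quantile normalization. The largest difference after pap1 was in cut15, an importin alpha that brings cargo into the nucleus. It read 3.95 and 3.86 in treated wild type and 5.39 and 5.40 in the treated deletion, a 2.81-fold higher level (1.49 ± 0.05, adjusted p = 2.35e-06), with all 4 treated arrays under the control arrays at 6.08 to 6.14. The gene hba1, whose product helps Crm1 export Pap1, was 1.30-fold higher (0.38 ± 0.06, adjusted p = 0.000894). The exportin gene crm1 itself read 8.87 and 8.84 against 8.80 and 8.82, a difference of -0.05 (-0.17 to 0.08, adjusted p = 0.454). It was -0.16 after quantile normalization, where it passed (adjusted p = 0.0326).

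Genes beside pap1 on the chromosome were read to see how far the deletion reached. Of the 3 nearest measured genes on either side, the autophagy gene atg12 next to it differed by -0.07 (-0.22 to 0.07) in treated arrays and was 0.67 higher in the deletion in control arrays. The ribosomal protein gene rpl1502 on the other side differed by -0.06 (-0.15 to 0.03). Farther out, the chromatin remodelling gene hrp1 was 1.71-fold lower (-0.78 ± 0.10) and the Rab GTPase gene ypt3 was 1.51-fold higher (0.59 ± 0.05). The sirtuin gene hst4 differed by 0.17 (adjusted p = 0.0436), which did not pass in 6 of the 8 fits that left out an array. The heterochromatin gene chp1 differed by 0.15 (-0.13 to 0.44). No signal under background was seen in a neighbour, since the lowest treated deletion value among these 6 genes was 4.63, in chp1. The genes chp1 and ypt3 lie 4 and 5 protein-coding genes from pap1, so nearer genes on that side were not measured.

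After pap1, gst2, plr1 and obr1, the largest drops in the deletion were in dmc1, snu66, mel1, rrp6 and bqt1. The meiotic recombinase gene dmc1 read 6.38 and 6.36 in treated wild type and 4.80 and 4.97 in the treated deletion, a 2.80-fold lower level (-1.49 ± 0.07, adjusted p = 5.84e-06). In control arrays it read 4.95 and 5.06 in wild type, so treated wild type stood above the other 3 groups. The splicing gene snu66, of the U4/U6.U5 particle, read 8.56 and 8.59 against 7.15 and 7.28 and was 2.56-fold lower (-1.36 ± 0.06). Its control difference was 0.07 and did not pass (adjusted p = 0.474). The alpha-galactosidase gene mel1 read 5.58 and 5.74 in wild type and 4.22 and 4.42 in the deletion, 2.52-fold lower (-1.33 ± 0.10), and it was lower in control arrays too (-0.62, adjusted p = 0.00806). The nuclear exosome nuclease gene rrp6 was 2.31-fold lower (-1.21 ± 0.06), and the telomere bouquet gene bqt1 2.21-fold (-1.14 ± 0.07).

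The metallothionein gene zym1, whose product binds zinc, read 10.21 and 10.16 in treated wild type and 9.04 and 9.13 in the treated deletion. It was 2.15-fold lower (-1.10 ± 0.05, adjusted p = 4.42e-06), with control levels of 9.78 and 9.76 in wild type and 9.55 and 9.53 in the deletion. Treated arrays thus lay above control in wild type and below control in the deletion. The strain difference of zym1 differed by -0.88 ± 0.06 between treated and control arrays (adjusted p = 5.79e-05). The other genes lower by at least 2-fold were the mating agglutinin gene mam3 (-1.09), ucp8 (-1.08), the endoplasmic reticulum autophagy receptor gene epr1 (-1.06), mcp4 (-1.04) and the nonsense-mediated decay gene upf3 (-1.01). In control arrays mam3, ucp8 and epr1 did not pass, while upf3 was lower (-0.39, adjusted p = 0.0102). The deletion control mean of mcp4, 3.35, lay under background, so no size is given for its control difference (adjusted p = 0.0494).

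Higher in the deletion by the largest amount was qcr1, a core subunit of respiratory complex III. It read 7.33 and 7.12 in treated wild type and 9.07 and 9.05 in the treated deletion, a 3.56-fold higher level (1.83 ± 0.07, adjusted p = 3.94e-06). Its control levels were 9.82 and 9.81 in wild type and 9.76 and 9.75 in the deletion, so all treated arrays lay below control and treated wild type lay lowest. The translation helicase gene sum3 read 8.88 and 8.86 against 10.55 and 10.81 (3.51-fold, 1.81 ± 0.08). The helix-loop-helix factor gene esc1 read 5.22 and 4.68 in wild type and 6.57 and 6.76 in the deletion (3.29-fold, 1.72 ± 0.16). The wild type replicates of esc1 lay farther apart than those of qcr1, and the groups still did not overlap.

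The S-adenosylmethionine synthetase gene sam1, which makes the cell's methyl donor, read 9.15 and 9.12 in treated wild type and 10.84 in both treated deletion arrays. Control levels were 10.85 and 10.89 in wild type and 10.87 and 10.90 in the deletion, so sam1 was low in treated wild type and near its control level in the treated deletion (3.26-fold higher, 1.70 ± 0.04, adjusted p = 1.38e-06). The esterase-like gene bem46 showed the same order, with 7.57 and 7.65 in treated wild type, 9.20 and 9.21 in the treated deletion and 9.30 to 9.38 in control arrays (1.60 ± 0.04). Genes of secretion, the Golgi nucleotide diphosphatase gene gda1 (1.61 ± 0.16) and the synaptobrevin gene syb1 (1.60 ± 0.08), were 3.06-fold and 3.02-fold higher. The list went on with mug89 (1.56), the spliceosomal Sm protein gene smb1 (1.56), the histone H2B gene htb1 (1.55), the sterol acyltransferase gene are2 (1.51), tas3 of the RNA interference machinery (1.51), cut15, the GTPase gene rho1 (1.48) and the mitochondrial ribosomal gene img1 (1.45). In control arrays the strain difference did not pass for 13 of these 15 genes, and it was -0.26 for htb1 and -0.34 for rho1, lower in the deletion. Beside each of these values stands the index, 0.71 lower in the treated deletion arrays.

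**Figure D3:**
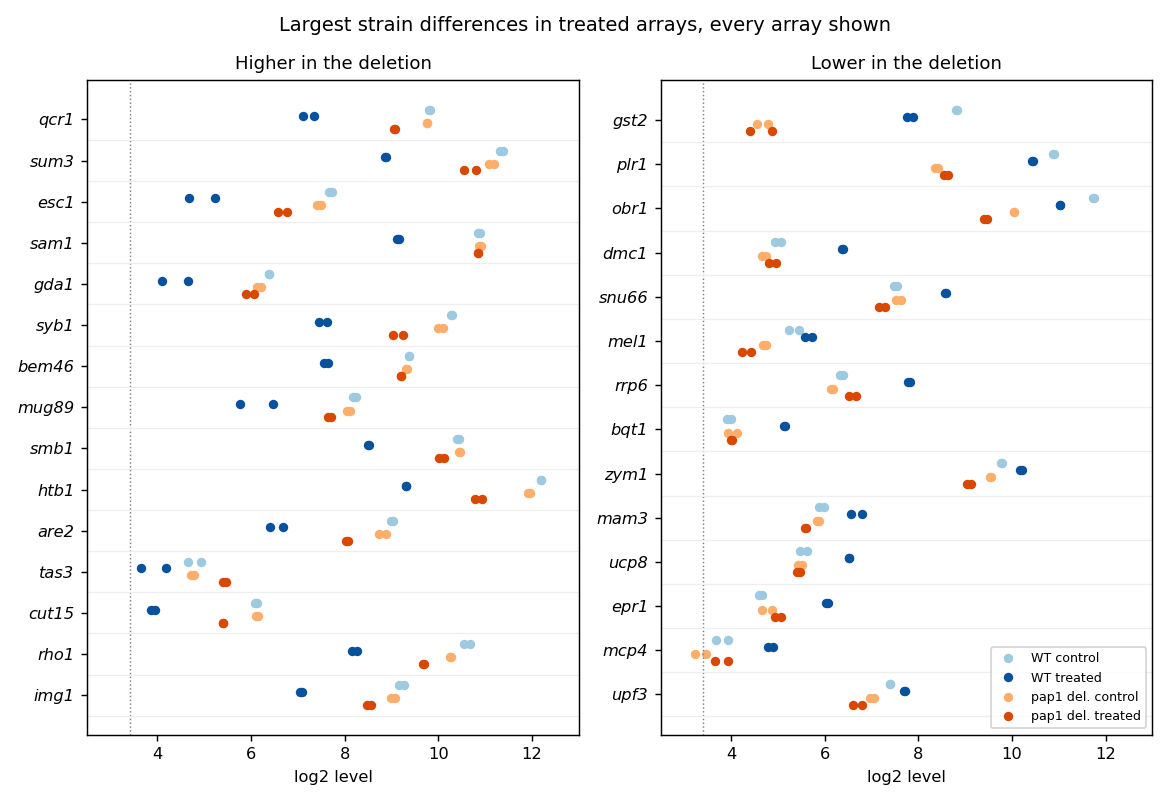
Log2 levels (horizontal axis) of the 15 genes highest over wild type in the treated deletion (left) and of the 14 lowest after pap1 (right), every array of the 4 groups shown as a point; the dotted line is the background level of 3.41. On the left the treated wild type arrays lie below the treated deletion arrays, which for sam1 sit at the control level of 10.85 to 10.90; on the right they lie above.

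Among lists of metabolic genes, several had larger shares higher in the deletion than the 39.3% of all genes. In methionine, cysteine and sulfur metabolism 12 of 15 were higher and 3 did not pass (median 0.33). After quantile normalization 8 were higher and 1 lower. The list's largest differences were in sam1 and the F-box gene pof1, which acts in sulfur control (1.06 ± 0.09). In amino acid synthesis 27 of 37 were higher and 2 lower (median 0.31), or 21 and 6 (median 0.16) after quantile normalization, with the glutamine synthetase gene gln1 at 1.34 ± 0.06 and the ornithine carbamoyltransferase gene arg3 at 1.02 ± 0.05. The gln1 levels were 8.90 and 9.01 in treated wild type and 10.26 and 10.33 in the treated deletion, with control levels from 8.85 to 9.07. Treated deletion arrays of gln1 thus stood above the other 3 groups, unlike those of sam1. In sterol and sphingolipid synthesis 29 of 39 were higher and 1 lower (median 0.36), or 24 and 6 after quantile normalization. The sterol C-5 desaturase gene erg31 read 4.75 and 4.47 in treated wild type, and its mean in the treated deletion was 6.06 ± 0.08 (SD, n = 2), a 2.72-fold higher level (1.45 ± 0.09). Control levels were 8.12 in both wild type arrays and 7.29 and 7.40 in the deletion.

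Carbon metabolism leant the same way. Of 23 genes of glycolysis, glycerol and trehalose 14 were higher (60.9%, beside 39.3% of all genes). In this list 3 were lower, a smaller share than the 26.5% of all genes. The median was 0.20, and after quantile normalization 12 were higher and 4 lower. Of the 724 genes with the highest mean levels 47.1% were higher and 18.9% lower. Higher members of the list included hexokinase hxk1 (0.98 ± 0.05), pyruvate kinase pyk1 (0.85 ± 0.05) and the glycerol-3-phosphate dehydrogenase gene gpd1 (0.56 ± 0.05). Pyruvate kinase levels were 11.33 and 11.36 in treated wild type and 12.15 and 12.25 in the treated deletion, near the control levels of 12.18 to 12.33. Of 8 hexose transporter genes 5 were higher (62.5%) and 1 lower (12.5%), with a median of 0.25, or 4 and 3 after quantile normalization. The treated wild type mean of ght1 lay under background, so its level was at least 2.04-fold higher in the deletion, and ght6 was 1.58-fold higher (0.66 ± 0.05).

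Cell wall genes had the highest median of the lists, 0.58, with 19 of 31 higher (61.3%, beside 39.3% of all genes), 3 lower (9.68%, beside 26.5%) and 9 not passing. The lower count was 5 after centring and 6 after quantile normalization. The GTPase gene rho1, which activates glucan synthase, read 8.15 and 8.26 in treated wild type and 9.68 in both treated deletion arrays (2.78-fold). The cell wall gene psu1 was 2.40-fold higher (1.26 ± 0.05), and both genes stood below their control levels in all treated arrays. The secreted glucanase gene exg1 differed from these, with 9.54 and 9.44 in treated wild type and 10.38 and 10.40 in the treated deletion. Its control levels were 9.56 and 9.57 in wild type and 10.19 and 10.21 in the deletion, so exg1 was higher in the deletion with either donor (0.90 ± 0.05 and 0.64).

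Respiration and metal handling were mixed. Of 60 genes of the respiratory chain and coenzyme Q 29 were higher (48.3%, beside 39.3% of all genes) and 16 lower (26.7%, beside 26.5%). The median was 0.13, and 15 did not pass, while after quantile normalization 20 were higher and 19 lower. The Rieske iron-sulfur subunit rip1 read 8.63 and 8.60 in treated wild type and 9.97 and 9.98 in the treated deletion (2.56-fold, 1.36 ± 0.04), and its control transcript read 0.91 higher at the 3' end and 1.58 at the 5' end. The coenzyme Q binding gene coq10 was 2.18-fold higher (1.13 ± 0.05) against -0.78 in control arrays. In iron-sulfur cluster and heme synthesis 10 of 17 were higher (58.8%) and 3 lower (17.6%), with a median of 0.18, or 7 and 3 after quantile normalization. The scaffold gene isu1 was 1.71-fold higher (0.78 ± 0.07) and the assembly gene isa2 1.85-fold lower (-0.89 ± 0.05), so genes of a shared assembly machinery went opposite ways. The list for nitric oxide removal had only 1 of its 6 genes measured and gives no reading of that removal. That member was the heme synthesis gene hem13. It differed by 0.22 ± 0.06 (adjusted p = 0.0166). That call was lost after centring (0.15, adjusted p = 0.0594) and after quantile normalization (0.06, adjusted p = 0.38). It was also lost in the fit of the 4 treated arrays alone (adjusted p = 0.06). The difference was 0.18 without the second treated deletion array and 0.13 without the second treated wild type array.

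In iron uptake 7 of 16 genes were higher (43.8%, beside 39.3% of all genes) and 3 lower (18.8%, beside 26.5%), with a median of 0.17. The siderophore transporter gene str1 was 1.79-fold higher (0.84 ± 0.08) and the ferric reductase-like gene frp2, with treated wild type under background, at least 1.82-fold. Among zinc and copper genes 8 of 17 were higher (47.1%) and 5 lower (29.4%). Their median of 0.03 became -0.03 after centring and -0.04 after quantile normalization. Of these, cao2, related to copper amine oxidases, was 1.63-fold lower (-0.71 ± 0.05) beside zym1. Without the second treated deletion array, and likewise without the first treated wild type array, 3 zinc and copper genes were lower instead of 5.

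Thiol and peroxide defence outside the Pap1 list was split, with 6 of 17 higher (35.3%, beside 39.3% of all genes) and 6 lower (35.3%, beside 26.5%). The other 5 did not pass, the median was -0.03, and after quantile normalization 5 were higher and 8 lower. The glutathione peroxidase gene gpx1 read 12.21 and 12.22 in treated wild type and 11.95 and 11.91 in the treated deletion, a 1.22-fold lower level (-0.29 ± 0.04, adjusted p = 0.000642). Its control difference of -0.02 did not pass. The quinone oxidoreductase-like gene zta1 (0.63 ± 0.05) and the gamma-glutamyl transpeptidase gene ggt1, of glutathione breakdown (0.61 ± 0.08), were higher. Named after their values were seen, to complete the lower side, superoxide dismutase sod1 (-0.42), the glutaredoxin genes grx1 (-0.42), grx2 (-0.23) and grx3 (-0.41) and the transporter gene hmt1 (-0.21) were lower as well. The glutaredoxins grx4 (0.35) and grx5 (0.32) were higher, so this family moved both ways.

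Of 40 genes of the Sty1 stress kinase pathway and stress transcription factors 19 were higher (47.5%, beside 39.3% of all genes). In this list 8 were lower, a smaller share than the 26.5% of all genes. The median was 0.16, and after quantile normalization 16 were higher and 11 lower. The kinase gene sty1 read 8.73 and 8.72 in treated wild type and 9.40 and 9.56 in the treated deletion, 1.69-fold higher (0.76 ± 0.06, adjusted p = 3.17e-05). The kinase gene sck2 (0.90 ± 0.06) and the phosphatase gene ptc4 (0.84 ± 0.05) were higher too. The transcription factor gene atf1, a target of Sty1, read 8.03 and 7.88 against 7.77 and 7.97. The groups overlapped and the difference was -0.09 (-0.27 to 0.09, adjusted p = 0.331), or 0.01 without the first treated deletion array. Its partner pcr1 differed by 0.16 ± 0.06 (adjusted p = 0.0443), which did not pass in 6 of the 8 fits that left out an array. Without the first treated wild type array 5 genes of the pathway were lower instead of 8.

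In the core environmental stress response 12 of 23 were higher (52.2%, beside 39.3% of all genes) and 8 lower (34.8%, beside 26.5%). The median was 0.19, and after quantile normalization 9 were higher and 9 lower. The stress gene rds1 was 1.71-fold higher (0.78 ± 0.08), and zym1 was the lowest. The small heat shock gene hsp16 differed by -0.10 (-0.19 to -0.004, adjusted p = 0.0636). The heat shock gene hsp9 read 13.39 and 13.40 against 13.28 and 13.27, a difference of -0.12 ± 0.04 (adjusted p = 0.0252). These values lie near the highest of any probe set on the arrays, 13.67 to 13.75, so the size is uncertain, and the call was lost without either treated deletion array or either treated wild type array (adjusted p from 0.0513 to 0.083). Of 25 chaperone genes 12 were higher (48.0%) and 1 lower (4.0%), with a median of 0.11. The cytosolic co-chaperone gene mas5 (1.26 ± 0.05) and the endoplasmic reticulum chaperone gene bip1 (1.16 ± 0.05) led them. Among 29 proteasome genes 17 were higher (58.6%) and 1 lower (3.4%), with a median of 0.21. They were led by the base ATPase gene rpt5 (1.26 ± 0.06) and the catalytic subunit gene pre3 (1.00 ± 0.05). After quantile normalization 7 proteasome genes and 4 chaperone genes were lower.

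Most cytosolic ribosomal protein genes did not pass. The list's median level was 12.74 to 12.84 in the 4 groups. The highest value of any probe set was 13.67 to 13.75, so sizes in this list are uncertain. Of 118 members 19 were higher (16.1%, beside 39.3% of all genes), 26 lower (22.0%, beside 26.5%) and 73 did not pass. Their median was -0.05, with a range from -0.36 for rpl4101 to 0.66 for rpl502. These counts moved with the setting: 8 were higher and 51 lower after centring, 9 and 6 in a fit of the 4 treated arrays alone, and 8 were lower without the second treated wild type array. Of 39 listed mitochondrial ribosomal genes, a list without img1, 14 were higher (35.9%) and 16 lower (41.0%), with a median of -0.03. After quantile normalization 9 were higher and 20 lower. The largest differences were in mrpl4 (1.18 ± 0.08) and mrp51 (1.01 ± 0.11), both higher, while the lowest member stood at -0.72. In ribosome biogenesis 17 of 46 were higher (37.0%) and 9 lower (19.6%), with a median of 0.06. After quantile normalization 16 were higher and 17 lower (median -0.06). Differences ran from rrp6 at -1.21 to the nucleolin-like gene gar2 at 1.41 ± 0.04. Of 11 histone genes 7 were higher (63.6%) and 2 lower (18.2%), with a median of 0.24, led by htb1 and the histone H2A gene hta2 (0.72 ± 0.05).

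More DNA repair and checkpoint genes were lower than higher, as was also the case for the cytosolic and the mitochondrial ribosomal protein lists. Of 68, 29 were lower (42.6%, beside 26.5% of all genes), 18 were higher and 21 did not pass. The median was 0.00, or -0.06 after centring and -0.14 after quantile normalization. The histone-fold gene mhf1 of the Fanconi pathway read 8.09 and 8.06 in treated wild type and 7.14 and 7.10 in the treated deletion (1.94-fold lower, -0.96 ± 0.04). The mismatch repair gene pms1 was 1.90-fold lower (-0.92 ± 0.08). Levels of mhf1 in control arrays were 6.44 to 6.49, so treated wild type stood above the other groups. The cohesin gene rad21 went the other way (1.08 ± 0.06).

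Of 54 MBF targets and replication genes 20 were higher and 12 lower (median 0.10), with shares near those of all genes. After quantile normalization 17 were higher and 18 lower (median -0.0062). The list held the replication licensing regulator cdt2, higher by 1.09 ± 0.13. Of 45 regulators of G2 and mitosis 24 were higher (53.3%) and 8 lower (17.8%), with a median of 0.20. In this list 4 were lower without the first treated deletion array and 13 after quantile normalization. The Wee1 family kinase gene mik1, with treated wild type under background, was at least 2.27-fold higher. The kinase gene cdr2, an inhibitor of Wee1 (1.08 ± 0.07), and the phosphatase gene cdc25, which opens the way to mitosis (0.64 ± 0.09), were higher as well, so inhibitors and activators of mitotic entry moved the same way. In mating and sexual development 15 of 43 were higher (34.9%) and 10 lower (23.3%), with a median of 0.03, led by mam3 and mug14 (-0.96 ± 0.06). The mating list turned with the scaling, to 14 and 13 (median -0.03) after centring and 13 and 18 (median -0.12) after quantile normalization. In autophagy 10 of 24 were higher (41.7%) and 6 lower, near the 39.3% and 26.5% of all genes, led by epr1 and atg1801 (0.91 ± 0.08). The autophagy median of 0.00 became -0.06 after centring, with 8 each way, and -0.07 after quantile normalization, with 7 higher and 8 lower. Drug and vacuolar transporters had 6 of 13 higher (46.2%) and 4 lower (30.8%), with a median of 0.07. Among them the vacuolar pump gene abc2 stood at 1.02 ± 0.07 and fnx1 at 0.76 ± 0.06. Calcium and cation transport had 10 of 26 higher (38.5%) and 6 lower (23.1%), again near all genes. The median was 0.07, or -0.06 after quantile normalization with 9 higher and 8 lower. Among them were the vacuolar exchanger gene vcx1 (1.34 ± 0.06) and the proton pump gene vma4 (0.79 ± 0.06).

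**Figure D4:**
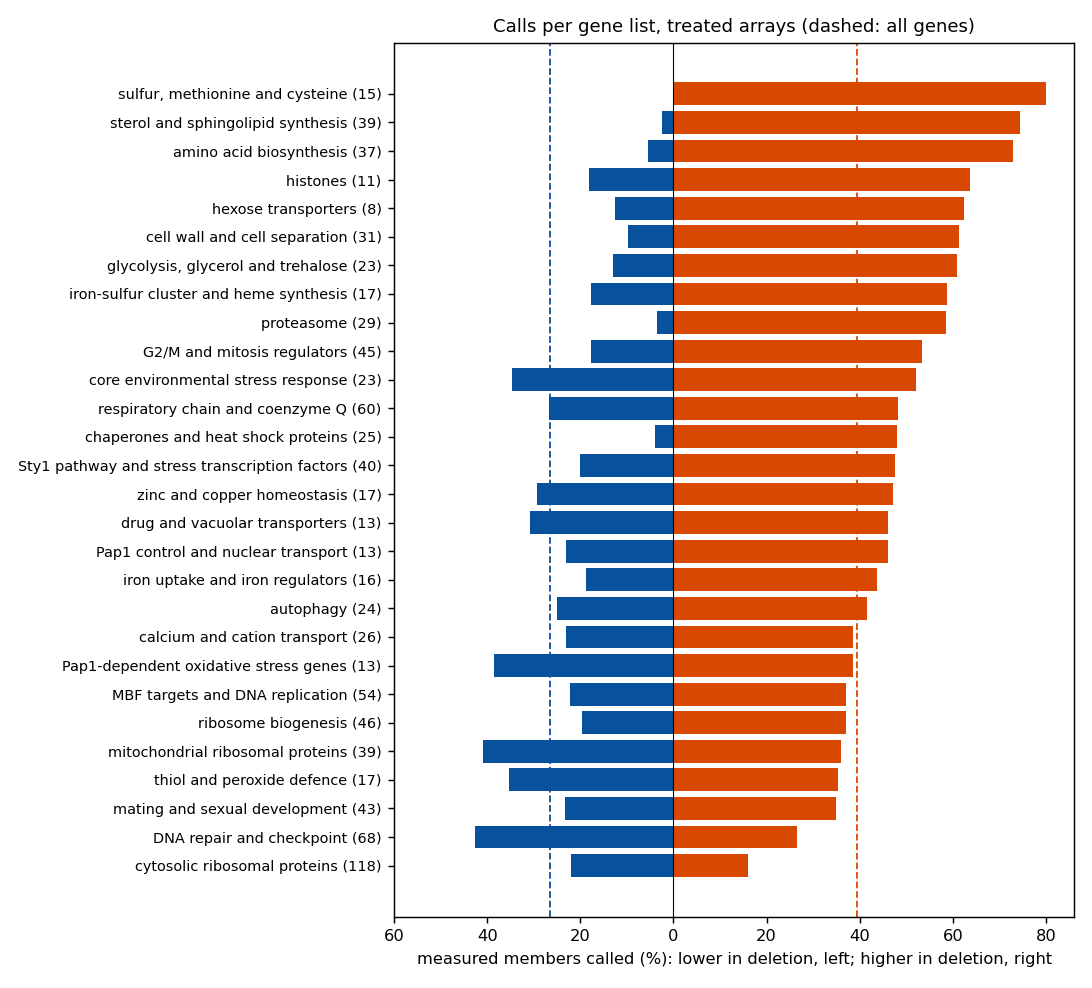
Share of the measured members of each gene list (number in brackets) that were called lower (left, blue) or higher (right, orange) in the deletion in treated arrays; the horizontal axis is in percent, and dashed lines mark the shares over all genes, 26.5% lower and 39.3% higher. Sulfur, sterol and amino acid genes have the largest shares higher, and DNA repair, mitochondrial ribosomal and Pap1-dependent genes the largest shares lower. Thiol defence, core stress, drug transporter, zinc and copper and, narrowly, respiratory genes also have larger shares lower than all genes.

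The strain comparison with decomposed donor gave fewer and smaller differences. It shares no array with the treated one, but control and treated sets came from a shared flask, so the comparisons are not fully separate. There 238 genes (8.22%) were higher and 265 (9.15%) lower in the deletion, with a median size of 0.28 among called genes. These 503 calls rest on every control array: leaving out a single control array left between 108 and 135, so the overlaps that follow depend on them too. Beside them stand the treated shares over all genes, 39.3% higher and 26.5% lower. Of the 238, 71 were also higher in treated arrays (29.8%) and 94 were lower there (39.5%). Of the 265, 57 were also lower in treated arrays (21.5%) and 160 were higher (60.4%). Of the 1139 genes higher in treated arrays 6.23% were thus also higher in control arrays, and of the 766 lower 7.44% were also lower. The difference between the strain comparisons was itself above 0 for 983 genes (33.9%) and below 0 for 728 (25.1%), and 173 and 17 of these reached 2-fold. With centring the counts were 845 above and 940 below, and after quantile normalization 810 and 975.

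Genes that differed in the same direction with either donor were few, and those with the largest such differences were named. On the lower side these were pap1, gst2, plr1, obr1 and mel1. On the higher side they were exg1, tlh2, slp1, urg1 and urg2. The telomere-linked helicase gene tlh2 was 1.29 ± 0.09 higher in treated and 1.31 higher in control arrays, and signal from its near-identical relative tlh1 at another telomere could be read by the same probes, so its values are uncertain. The mitotic activator gene slp1 was 0.78 ± 0.05 and 0.94 higher. The uracil-regulated genes urg1 (0.85 ± 0.07 and 0.55) and urg2 (1.35 ± 0.07 and 0.55) were higher as well. Neither tlh2 (adjusted p = 0.935) nor slp1 (adjusted p = 0.103) passed the test of a difference between the comparisons, which for tlh2 was -0.01 and for slp1 -0.16.

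The strain difference moved upward the most under active donor in erg31 (2.22 ± 0.13), sum3 (2.02 ± 0.12), the palmitoyltransferase gene pfa3 (2.02 ± 0.15), esc1 (1.96 ± 0.22) and coq10 (1.90 ± 0.08). Of these erg31, pfa3 and coq10 were lower in the deletion in control arrays (-0.78, -0.74 and -0.78) and higher in treated arrays (1.45, 1.28 and 1.13). Levels of pfa3 were 4.80 and 5.04 in treated wild type and 6.08 and 6.31 in the treated deletion, under 7.48 and 7.62 in wild type control and 6.78 and 6.82 in deletion control. It moved downward the most in snu66 (-1.43 ± 0.09), bqt1 (-1.22 ± 0.09), epr1 (-1.21 ± 0.11), pms1 (-1.19 ± 0.11) and dmc1 (-1.18 ± 0.10). In all 5 of these treated wild type stood above the other 3 groups. The index difference between strains also turned from 0.31 in control to -0.71 in treated arrays, and the part of the index in these values was not tested.

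**Figure D5:**
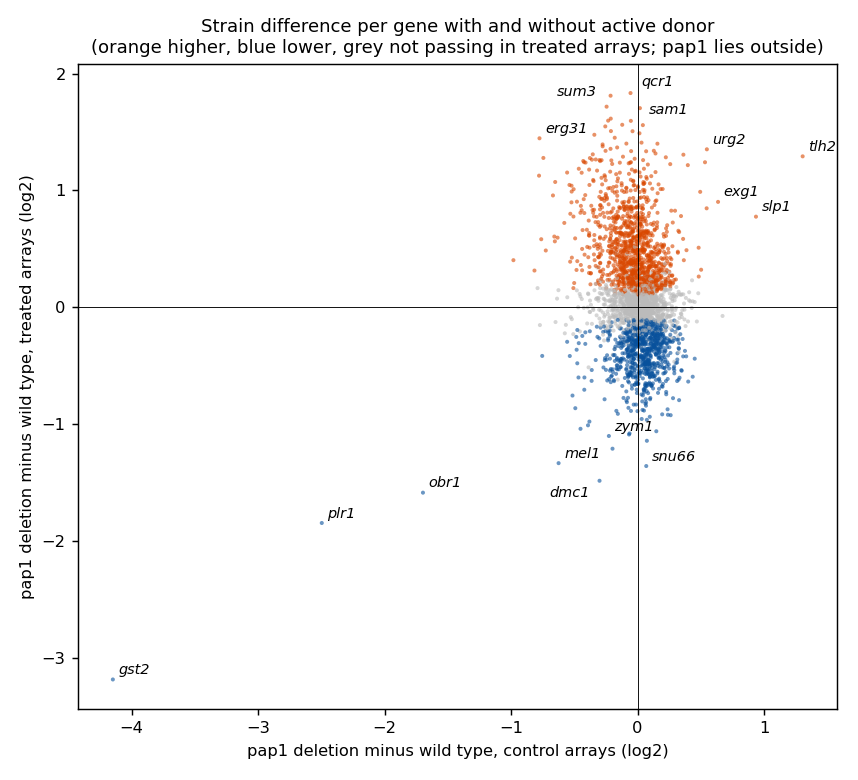
Strain difference of each gene, deletion minus wild type on the log2 scale, in control arrays (horizontal axis) against treated arrays (vertical axis); pap1 lies outside the axes, with deletion readings under background. The genes gst2, plr1 and obr1 lie far below 0 on both axes, while most genes called in treated arrays, in orange and blue, lie near 0 on the horizontal axis.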

How the data were processed

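Total RNA of the 4 groups was labelled with biotin and hybridized to Affymetrix Yeast_2 arrays, per the labels. The deposited log2 values hold 1 summary for each probe set; the submitters' processing notes name RMA as the authors' method, without a version. They were used without further scaling. Groups and replicate numbers came from the sample titles.

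Of 10928 probe sets, 2914 were named with 1 S. pombe gene; symbols were updated for 113 genes, and for the 14 genes with several probe sets the one with the highest mean over all arrays was used. The 13 genes that also lie on a probe set of several genes are left unnamed. Background was set at the 95th percentile of mean values among the 2601 probe sets for S. cerevisiae, and 2812 genes had a mean above it. Where a group mean lay under it, the fold was computed against it and is a lower bound.

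Differences were tested with limma 3.58.1 under R 4.3.3, by lmFit and eBayes with a mean for each group over all 8 arrays (4 residual and 3.07 prior degrees of freedom), with Benjamini-Hochberg adjustment over 2896 genes. Errors are standard errors. The steps were tested on simulated data with independent noise. There some genes were raised in the treated deletion, no gene was lowered and no 3' to 5' shift was added. That test therefore cannot show how the calls hold under such a shift. All p-values measure the spread between these samples.

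Genes and the 29 gene lists were chosen with earlier results of these data known. Named genes were the 15 largest differences each way with no overlap of arrays and the higher group above background, up to 2 members per list with the largest called difference, the 5 largest changes of the strain difference each way, the 5 largest each way shared by treated and control arrays, the 3 nearest measured genes on each side of pap1, and a short set of Pap1 and stress genes. Of members matched through an older name, asf1 and csm1 were left out of their lists, because that name was meant for another gene, and the others were kept (such as mre11, listed as rad32). Alternatives were centring, quantile normalization, the mean of a gene's probe sets, a background filter, eBayes with trend and robust, the 4 treated arrays alone, a fold minimum, the replicate block and leaving out each array.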

Additional observations from a re-analysis of the deposited data

Results flagged for a closer look

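The strain difference, deletion minus wild type, was compared between treated and control arrays in the same limma fit, and genes whose difference passed that test are given here with the change on the log2 scale. It lay above 0 for 983 genes and below 0 for 728. The values that follow are those of named genes, with positive values where the deletion stood higher relative to wild type under active donor. In the same arrays the 3' to 5' index of the deletion, relative to wild type, was 0.31 in control and -0.71 in treated arrays, and its part in these values was not tested.

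Among genes tied to Pap1 the change was pap1 (-0.36), gst2 (0.96), plr1 (0.65), srx1 (-0.36) and bfr1 (-0.22). The deletion readings of pap1 lie under background, so its value is fitted and not a measured size. The same change was pmd1 (0.51), trr1 (0.21), pgr1 (0.33), caf5 (0.55), crm1 (0.23), hba1 (0.33) and cut15 (1.47). In thiol and metal genes it was gpx1 (-0.27), ggt1 (0.61), zta1 (0.70), zym1 (-0.88), cao2 (-0.70), frp2 (1.02), str1 (0.80), isa2 (-0.84) and isu1 (1.28). Stress pathway and heat shock genes changed as sty1 (0.92), pcr1 (0.67), sck2 (1.42), ptc4 (0.89), rds1 (1.12), gpd1 (0.66), hsp9 (-0.18), mas5 (1.22) and bip1 (1.18).

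Respiratory and mitochondrial genes followed with qcr1 (1.89), rip1 (1.57), coq10 (1.90), mrpl4 (1.22), mrp51 (1.52) and img1 (1.63). For metabolic genes and sugar transporters the values were sam1 (1.69), pof1 (0.96), gln1 (1.21), arg3 (1.02), erg31 (2.22), are2 (1.72), hxk1 (1.16), pyk1 (0.99), ght1 (1.43), ght6 (0.64), urg1 (0.30) and urg2 (0.80). Membrane, wall and transport genes gave rho1 (1.82), psu1 (1.56), exg1 (0.27), gda1 (1.83), syb1 (1.83), pfa3 (2.02), ypt3 (0.54), abc2 (1.25), fnx1 (0.75), vcx1 (1.59) and vma4 (0.78). Genes of RNA, translation and protein turnover gave sum3 (2.02), smb1 (1.52), gar2 (1.38), rpl502 (0.59), rpt5 (1.54), pre3 (1.05), rpl4101 (-0.53), rrp6 (-1.01), snu66 (-1.43) and upf3 (-0.62).

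Chromatin, cell cycle and repair genes gave htb1 (1.80), hta2 (0.81), tas3 (1.55), hrp1 (-0.88), rad21 (1.12), mhf1 (-0.99), pms1 (-1.19), mik1 (1.14), cdr2 (1.11) and cdt2 (1.44). Meiosis, mating and autophagy genes gave dmc1 (-1.18), bqt1 (-1.22), mcp4 (-0.59), mam3 (-1.02), mug14 (-1.04), mug89 (1.68), esc1 (1.96), atg12 (-0.75), atg1801 (0.91) and epr1 (-1.21). The remaining genes gave bem46 (1.65), mel1 (-0.71) and ucp8 (-1.02). For ght1, frp2 and mik1 the treated wild type mean, and for mcp4 the deletion control mean, lay under background, so their values are fitted and not measured sizes.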

How the results depend on the processing

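The counts of 1139 genes higher and 766 lower in treated arrays stayed within 1.5 times under every alternative except a fold minimum of 2, which left 117 and 15. The change of the strain difference kept 173 genes above and 17 below 0 with that minimum, and the control comparison 5 of its 503 calls. The control count was 774 with eBayes trend and robust, and between 108 and 660 when an array was left out: 108 and 127 without the first or second wild type control array, and 113 and 135 without the first or second deletion control array. With an array left out, 961 to 1105 genes were higher and 637 to 728 lower in treated arrays. With the replicate block the counts were 1124 and 737. The numbers pair nothing in the labels across strains, and deviations of treated arrays with the same number correlated at -0.01. Between control and treated arrays of the same strain the deviations correlated at -0.26 in the deletion and at -0.04 in wild type. Signs turned for chp1 (-0.0416) and trr1 (-0.0685) after quantile normalization and for atf1 (0.0129) without the first treated deletion array (-0.189 without the second); none of the 3 passed in either case, and the cause was not tested. Calls of single named genes that changed were those of hem13, hst4, pcr1, hsp9 and tpx1, lost under several alternatives. All 5 were lost in the fit of the 4 treated arrays alone. Calls of hsp16, rpl1502, atg12 and crm1 were gained under some alternatives, and tpx1 lost its call under the replicate block (adjusted p = 0.0662). The number of arrays limits the precision, and 84 of the 2896 genes had a mean under background.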
